A study of Mus musculus with 10 samples.

Results

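The CD8 and natural killer (NK) cell receptor genes examined here were Cd8a, Cd8b1, Ncr1, Klrb1c, Klrd1, Klrk1 and Il2rb, 7 of the 19505 genes that a probe set with a single symbol represented. They were chosen by symbol, each had 1 probe set, and all 7 were among the 13393 genes tested, which lay above the 40th percentile of the array on at least 2 arrays. Klrb1c passed that filter through the 4 GFP arrays alone and Ncr1 through those and 1 oncogenic Vav1 spleen array, so counts over the 7 genes are descriptions. The other 5 genes lay above it on all 10 arrays. Mice of the C57BL/10 strain had received CD4+ T cells transduced with oncogenic Vav1 or with GFP, per the labels, were immunocompromised and were analysed 6 months after transfer. The labels give the genotype of all animals as wild type plus the construct. Total RNA was hybridised to single-colour Affymetrix arrays from oncogenic Vav1 spleen (4 arrays), GFP spleen (2 arrays), oncogenic Vav1 lymph node (2 arrays) and GFP lymph node (2 arrays). The 10 arrays came from 7 animals named in the labels, of which 3 gave both tissues. Vav1 relays signals of the T cell receptor, and the series concerns forms of it mutated in cancer. The labels give neither the mutation, nor the promoter of the vector, nor the lymphocytes that the hosts kept, nor the age of the animals.

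CD8 is a coreceptor of the T cell receptor that binds class I major histocompatibility complex (MHC) molecules. Its alpha chain, Cd8a, is also carried as a homodimer by a subset of dendritic cells, whereas its beta chain, Cd8b1, is largely a mark of conventional CD8 T cells. NK cells kill without antigen-specific receptors and read activating and inhibitory receptors, of which Ncr1 (NKp46) and Klrb1c (NK1.1) are the most used mouse markers. Klrd1 (CD94) pairs with NKG2 chains, Klrk1 (NKG2D) recognises stress-induced ligands, and both are shared by NK cells and activated CD8 T cells. Il2rb (CD122) is the beta chain of the receptors for IL-2 and IL-15, on which NK cells and memory CD8 T cells depend.

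The promoter windows of Cd8a, Ncr1, Klrb1c and Klrk1 are shown, the members for which the reference used here held a window. It held none for Cd8b1, Klrd1 and Il2rb. Each window holds 300 bases around the annotated start in RefSeq (GRCm38.p6), read 5′ to 3′ on the strand of the gene. Capitals mark matches on either strand to TGTGGT or TGCGGT, letters bound by RUNX factors, which act in CD8 T and NK cells.
Cd8a, chr6:71373177-71373476 (plus strand): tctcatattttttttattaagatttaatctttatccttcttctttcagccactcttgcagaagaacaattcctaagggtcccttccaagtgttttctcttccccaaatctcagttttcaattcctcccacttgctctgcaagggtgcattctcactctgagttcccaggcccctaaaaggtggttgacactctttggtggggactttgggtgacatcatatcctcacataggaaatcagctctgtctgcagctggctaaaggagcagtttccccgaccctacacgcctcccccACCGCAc
Ncr1, chr7:4337465-4337764 (plus strand): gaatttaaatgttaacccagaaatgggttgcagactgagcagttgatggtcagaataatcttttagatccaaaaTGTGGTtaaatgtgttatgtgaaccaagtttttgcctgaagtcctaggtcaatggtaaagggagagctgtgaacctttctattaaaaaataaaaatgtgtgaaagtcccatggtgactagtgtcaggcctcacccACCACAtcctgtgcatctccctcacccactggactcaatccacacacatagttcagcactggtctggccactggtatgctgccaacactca
Klrb1c, chr6:128788592-128788891 (minus strand): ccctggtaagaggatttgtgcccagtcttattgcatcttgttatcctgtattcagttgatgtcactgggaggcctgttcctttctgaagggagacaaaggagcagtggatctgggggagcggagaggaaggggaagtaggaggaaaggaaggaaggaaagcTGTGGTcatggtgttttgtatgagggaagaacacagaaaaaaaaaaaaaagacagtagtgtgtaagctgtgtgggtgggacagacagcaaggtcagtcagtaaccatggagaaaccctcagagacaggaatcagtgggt
Klrk1, chr6:129623815-129624114 (minus strand): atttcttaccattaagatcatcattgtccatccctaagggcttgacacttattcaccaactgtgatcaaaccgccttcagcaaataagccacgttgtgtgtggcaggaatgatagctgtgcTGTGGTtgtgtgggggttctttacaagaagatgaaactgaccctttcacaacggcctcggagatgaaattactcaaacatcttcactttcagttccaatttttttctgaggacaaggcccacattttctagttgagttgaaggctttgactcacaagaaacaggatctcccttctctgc
Ncr1 had 2 windows in the reference, of which only the first is shown and counted here. The motif TGTGGT had 2 matches in that window of Ncr1, 1 in the window of Klrb1c and 1 in that of Klrk1. It had none in the window of Cd8a, which had 1 match to TGCGGT. Of all 32851 windows in the reference, 16.8% held TGTGGT, 6.45% held TGCGGT and 22.4% held either. The letters of an ETS site, AGGAAG, had 3 matches in the Klrb1c window and none in the other windows shown, against 35.4% of all windows. The letters of a T-box site, AGGTGT (13.7% of all windows), and those of a STAT site, TTCNNNGAA (8.30% of all windows), had no match in any of the 4 windows. In RefSeq's gene order, Cd8b1 and Cd8a are neighbours on chromosome 6, and Klrd1 and Klrk1 are neighbours on the same chromosome, which also carries Klrb1c. Ncr1 lies on chromosome 7 and Il2rb on chromosome 15.

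The arrays held RNA of several cell types, although CD4+ T cells are the labelled cell type. Ranked among the probe sets of its array, Cd79a, a B cell receptor chain, was never below percentile 95.3, and the myeloid gene Lyz2 never below 98.8. The lowest percentiles of Cd3e, Cd4 and Cd8a were 82.4, 76.4 and 79.4. The Vav1 probe set read 9.99 to 10.30 in oncogenic Vav1 spleen, against 9.63 and 9.83 in GFP spleen, and 10.17 and 9.27 in oncogenic Vav1 lymph node, against 9.52 and 9.69 in GFP lymph node (adjusted p = 0.137 in spleen and 0.8 in lymph node). It did not pass the test in either tissue, and whether the probes detect the transduced form is not stated. The deposited values are log2 values, so differences are log2 changes, and a group is called near background where its mean lay below the 40th percentile of each of its arrays. A gene is said to have risen or fallen where limma's moderated test gave an adjusted p under 0.05 over all genes tested. Among the calls in spleen 63.6% were rises, and 45.7% were after quantile normalization. For the construct difference over both tissues the shares were 54.8% and 45.1%, for the interaction 11.6% and 28%, and for lymph node against spleen in GFP animals 72.5% and 53.8%.

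In spleen the NK receptor genes Ncr1 and Klrb1c fell with oncogenic Vav1, Il2rb rose, and the 2 CD8 chains did not pass the test. Of the 7 genes 2 fell, against 9.77% of all genes tested, and 1 rose, against 17.1%. The median change of the 7 was -0.07, and that of all genes tested was 0.00. Bulk arrays cannot tell fewer cells of a type from less RNA per cell, and they give levels relative to the total RNA.

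Ncr1, an activating receptor of NK cells, read 5.19, 5.43, 6.10 and 5.22 on the oncogenic Vav1 spleen arrays and 6.58 and 6.71 on the GFP spleen arrays. The groups did not overlap, and the oncogenic Vav1 mean was near background. The change was -1.16 (SE 0.24, adjusted p = 0.00703), or 0.447 times the GFP level. Klrb1c, the gene of the NK1.1 antigen, read 4.99, 5.22, 4.99 and 5.02 with oncogenic Vav1 and 6.02 and 6.31 with GFP in spleen. Here too the groups stood apart and the oncogenic Vav1 mean was near background. Its change was -1.11 (SE 0.34, adjusted p = 0.0337).

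Klrd1, the partner chain of the NKG2 receptors, read 6.65, 6.57, 7.29 and 6.41 in oncogenic Vav1 spleens and 7.35 and 7.52 in GFP spleens. All oncogenic Vav1 arrays lay below both GFP arrays, replicate 3 by the least, and the change of -0.71 (SE 0.24, adjusted p = 0.0543) did not pass the test, though it did in 8 of 23 alternatives. Klrk1, the NKG2D receptor, read 6.55, 6.49, 7.47 and 6.62 with oncogenic Vav1 and 6.45 and 6.31 with GFP in spleen. Every oncogenic Vav1 array lay above the GFP arrays, replicate 3 far above the others, and the change was 0.40 (SE 0.24, adjusted p = 0.238).

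Il2rb, the signalling chain for IL-2 and IL-15, read 9.70, 9.62, 10.06 and 9.50 in oncogenic Vav1 spleens and 8.64 and 8.58 in GFP spleens. The groups did not overlap, and Il2rb rose by 1.11 (SE 0.31, adjusted p = 0.0252), or 2.16-fold. Cd8a, the CD8 alpha chain, read 9.02, 8.89, 9.95 and 9.19 with oncogenic Vav1 and 9.26 and 8.96 with GFP. Cd8b1, the beta chain, read 9.29, 9.15, 10.00 and 9.02 with oncogenic Vav1 and 9.37 and 9.49 with GFP. For both chains the groups overlapped and replicate 3 of oncogenic Vav1 was the highest array. The changes were 0.15 (SE 0.31, adjusted p = 0.74; 95% interval -0.54 to 0.84) for Cd8a and -0.07 (SE 0.24, adjusted p = 0.854; 95% interval -0.60 to 0.47) for Cd8b1.

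The spleen calls rested on 2 GFP arrays. Without either of them, where the remaining array is assumed to vary like the other groups, none of the 7 genes passed the test: Ncr1 then had adjusted p = 0.0561 and 0.0592, Klrb1c 0.121 and 0.184, and Il2rb 0.13 and 0.126. The median of the intronic control probe sets was 5.43 to 5.55 in oncogenic Vav1 spleen and 5.69 and 5.87 in GFP spleen. With that median as a covariate the changes were -0.75 for Ncr1, -0.16 for Klrb1c and 0.33 for Il2rb, with adjusted p of 0.233, 0.833 and 0.64. Since the median did not overlap between the constructs in spleen, covariate and construct cannot be fully told apart there. Klrb1c also missed the threshold without any 1 of the oncogenic Vav1 spleen arrays (adjusted p = 0.0557 to 0.0745), and Il2rb without replicate 1 or 3 of them (0.0564 and 0.0543).

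**Figure D1:**
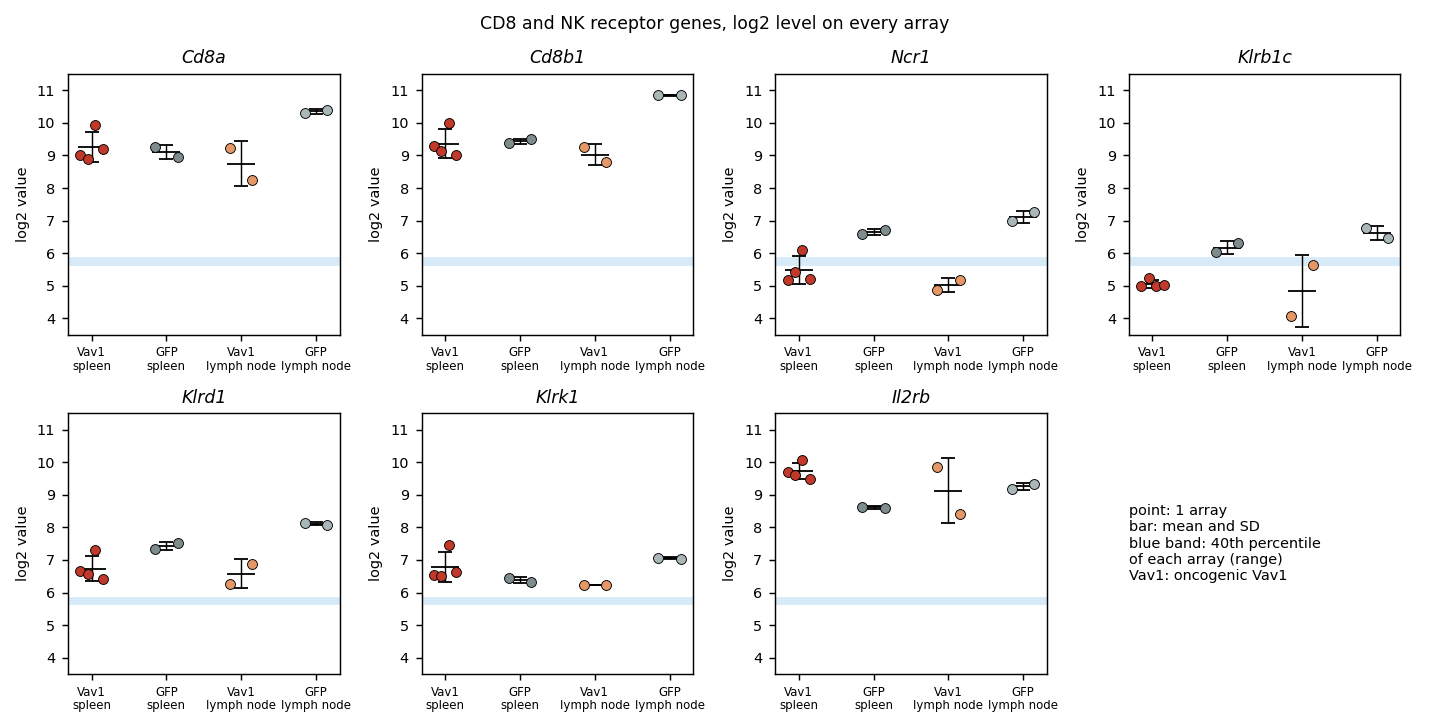
Log2 level of each gene (vertical axis) on every array, by group (horizontal axis), with points for arrays, bars for mean and SD and a band for the range of the 40th percentiles of the arrays. The means of Ncr1 and Klrb1c lie below the band in both oncogenic Vav1 groups, and the 2 oncogenic Vav1 lymph node arrays lie far apart for Klrb1c, Il2rb and Cd8a.

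In lymph node 5 of the 7 genes fell with oncogenic Vav1: both CD8 chains and the NK receptors Ncr1, Klrb1c and Klrd1. Among all genes tested 10.8% fell and 7.87% rose, and none of the 7 rose. The median change of the 7 was -1.61, and that of all genes tested was -0.02.

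Cd8b1 read 9.24 and 8.80 in oncogenic Vav1 lymph nodes and 10.85 and 10.84 in GFP lymph nodes. The change of -1.83 (SE 0.28, adjusted p = 0.00141) amounts to 0.282 times the GFP level. Cd8a read 9.24 and 8.25 with oncogenic Vav1 and 10.31 and 10.41 with GFP, a change of -1.61 (SE 0.36, adjusted p = 0.0112). For both chains each oncogenic Vav1 array lay more than a log2 unit below each GFP array.

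Ncr1 fell, with 4.86 and 5.17 in oncogenic Vav1 lymph nodes against 6.98 and 7.25 in GFP lymph nodes. The change was -2.10 (SE 0.28, adjusted p = 0.000637), or 0.233 times the GFP level, and the oncogenic Vav1 mean was near background. Klrb1c read 4.06 and 5.63 with oncogenic Vav1, the widest spread between replicates among the 7, and 6.78 and 6.46 with GFP. It fell by 1.77 (SE 0.39, adjusted p = 0.0104), again to a mean near background. Without oncogenic Vav1 lymph node replicate 1 its change was -0.99 and without replicate 2 it was -2.55. Klrd1 read 6.27 and 6.89 with oncogenic Vav1 and 8.14 and 8.08 with GFP, a change of -1.53 (SE 0.28, adjusted p = 0.00408).

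Klrk1 read 6.24 and 6.23 in oncogenic Vav1 lymph nodes and 7.08 and 7.04 in GFP lymph nodes. The pairs stood apart, but the change of -0.82 (SE 0.28, adjusted p = 0.0688) missed the threshold, which it passed in 4 of 23 alternatives. Il2rb read 9.85 and 8.42 with oncogenic Vav1 and 9.18 and 9.33 with GFP, so that 1 oncogenic Vav1 array lay above both GFP arrays and the other below them. Its change was -0.13 (SE 0.36, adjusted p = 0.855). Without replicate 2 of oncogenic Vav1 lymph node it was 0.59 (adjusted p = 0.0421), and without replicate 1 it was -0.84 (adjusted p = 0.00415). Each of these fits leaves 1 oncogenic Vav1 lymph node array, which is assumed to vary like the other groups.

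When the 4 lymph node arrays alone were fitted, Cd8b1 and Ncr1 passed the test, and Cd8a, Klrb1c and Klrd1 did not (adjusted p of 0.0979, 0.175 and 0.0577). Without GFP lymph node replicate 1 the calls of Cd8a and Klrb1c were lost (0.0665 and 0.0881), and without replicate 2 that of Cd8a (0.0798).

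**Figure D2:**
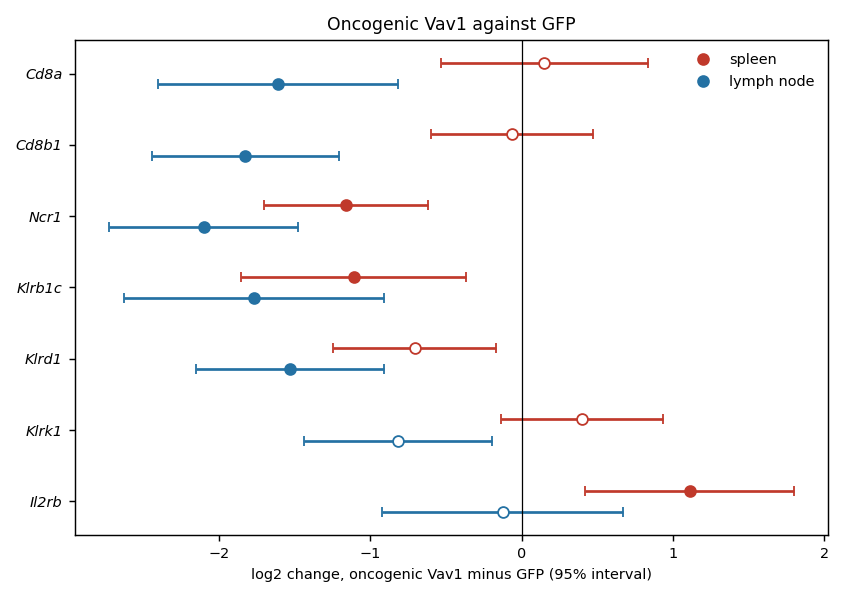
Log2 change of each gene, oncogenic Vav1 minus GFP (horizontal axis), in spleen and in lymph node, with 95% intervals and filled points for adjusted p under 0.05. All 7 estimates lie further to the left in lymph node than in spleen.

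The construct difference was more negative in lymph node than in spleen for the CD8 chains. The interaction, the lymph node change minus the spleen change, was -1.75 for Cd8a (SE 0.47, adjusted p = 0.0463) and -1.73 for Cd8b1 (SE 0.37, adjusted p = 0.017). These 2 genes of the 7 passed, where 7.11% of all genes tested had a negative interaction past the threshold. The other members had estimates between -1.22 and -0.65 that did not pass, from Il2rb at -1.22 (adjusted p = 0.146) and Klrk1 at -1.20 (adjusted p = 0.0845) to Klrb1c at -0.65 (adjusted p = 0.466). Without either GFP spleen array, or without either GFP lymph node array, neither CD8 chain passed. Without oncogenic Vav1 spleen replicate 1 or 4, and under median centring and quantile normalization, Cd8b1 passed and Cd8a did not. The same held under a stricter filter, without the variance trend, with replicate numbers as a block and with the intronic control covariate. Of 22 alternatives, Cd8a passed in 10 and Cd8b1 in 18.

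Over both tissues 4 of the 7 genes fell, where 14.3% of all genes tested did. The falls were -1.55 for Ncr1 (adjusted p = 0.000277), -1.36 for Klrb1c (adjusted p = 0.00172), -1.03 for Klrd1 (adjusted p = 0.00345) and -0.81 for Cd8b1 (adjusted p = 0.0308). Ncr1, Klrb1c and Klrd1 kept these calls in every alternative fitted for them, with changes of -1.76 to -1.36, -1.60 to -1.02 and -1.27 to -0.73. Klrb1c was fitted in 21 alternatives, against 22 for Ncr1 and Klrd1, and had entered the test through the 4 GFP arrays alone. The call of Cd8b1 was lost without the animal block (change of -0.82, adjusted p = 0.0895), whose correlation was negative. That call was lost with array weights too (-0.46, adjusted p = 0.13). It was also lost without GFP spleen replicate 1 (adjusted p = 0.0516) and without GFP lymph node replicate 1 or 2 (0.0753 and 0.158). Cd8a at -0.63 (adjusted p = 0.102), Klrk1 at -0.12 (adjusted p = 0.697) and Il2rb at 0.57 (adjusted p = 0.0957) did not pass.

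In GFP animals both CD8 chains were higher in lymph node than in spleen. Cd8a was higher by 1.25 (SE 0.35, adjusted p = 0.0356), or 2.38-fold, and Cd8b1 by 1.41 (SE 0.28, adjusted p = 0.00632), or 2.66-fold. Of all genes tested 11.6% were higher in GFP lymph node. The 5 NK receptor and cytokine receptor genes had estimates between 0.45 and 0.68, none past the threshold, from Klrb1c at 0.45 (adjusted p = 0.481) to Klrk1 at 0.68 (adjusted p = 0.139). Without GFP lymph node replicate 1 neither CD8 chain passed, and without GFP lymph node replicate 2, either GFP spleen array, or oncogenic Vav1 spleen replicate 1 or 4, Cd8b1 passed and Cd8a did not.

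In oncogenic Vav1 animals all 7 estimates for lymph node against spleen were negative and none passed the test. They ran from -0.58 for Il2rb (adjusted p = 0.544) to -0.12 for Klrd1 (adjusted p = 0.862), and none of the 7 had an unadjusted p under 0.05. Only 0.0373% of all genes tested were called in that comparison. The 95% interval for Cd8a was -1.18 to 0.19 and that for Cd8b1 was -0.86 to 0.22. Without oncogenic Vav1 lymph node replicate 1 Klrb1c turned to 0.58 (adjusted p = 0.0487), and 3 of the 7 genes then passed. That fit rests on 1 lymph node array whose spread is taken from the other groups, and both Klrb1c means were near background.

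**Figure D3:**
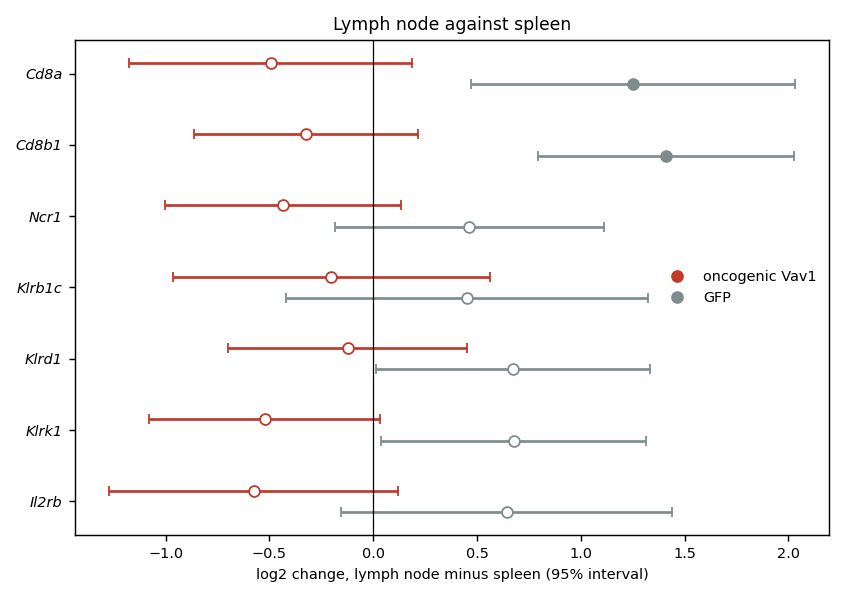
Log2 change of each gene, lymph node minus spleen (horizontal axis), in oncogenic Vav1 and in GFP animals, with 95% intervals and filled points for adjusted p under 0.05. The 7 GFP estimates lie above 0 and the 7 oncogenic Vav1 estimates below it.

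Cd8a and Cd8b1 were also set against Cd3e, a chain of the T cell receptor complex, and against Cd4, the other coreceptor, within each array. The difference Cd8b1 minus Cd4 ran from -0.34 to 0.83 in oncogenic Vav1 spleen and from 1.09 to 1.27 in GFP spleen, and its mean was 1.11 log2 units lower with oncogenic Vav1. The groups did not overlap, and the exact two-sided permutation test gave p = 0.0667, the smallest that 4 against 2 arrays allow. Cd8b1 minus Cd3e ran from -1.18 to -0.36 with oncogenic Vav1 and from -0.11 to -0.06 with GFP in spleen, with the same p of 0.0667. In spleen the groups overlapped for Cd8a minus Cd4 (difference of -0.89, permutation p = 0.2) and for Cd8a minus Cd3e (difference of -0.60, permutation p = 0.2).

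In lymph node, Cd8b1 minus Cd4 was 0.11 and 0.77 with oncogenic Vav1, against 1.23 and 1.33 with GFP, and Cd8a minus Cd4 was 0.11 and 0.23, against 0.78 and 0.79. Both pairs stood apart, at permutation p = 0.333, the smallest that 2 against 2 arrays allow. Against Cd3e the groups overlapped in lymph node. Cd8b1 minus Cd3e was -1.04 and 0.30 with oncogenic Vav1, against 0.24 and 0.26 with GFP (exact permutation p = 1), and Cd8a minus Cd3e was -1.04 and -0.24, against -0.29 and -0.19 (exact permutation p = 0.667). These 8 contrasts show unequal change of 2 transcripts on an array, and none could reach 0.05. The differences are between probe sets of unequal brightness, so only their change between groups has meaning.

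For this list and those below, the shares over all genes tested were 17.1% rises and 9.77% falls in spleen. In lymph node they were 7.87% rises and 10.8% falls. Among the partners of these receptors, the CD8 lineage and T cell list had 15 tested genes. Of these 4 rose and none fell in spleen, and 2 rose and 6 fell in lymph node, with medians of 0.60 and -0.87. The granzyme gene Gzmk rose in spleen by 5.03 (adjusted p = 0.000183) and in lymph node by 3.73 (adjusted p = 0.00109), in both tissues against GFP means near background (5.28 and 5.51). Nkg7, a cytotoxic granule protein gene, rose in spleen by 2.22 (adjusted p = 0.00307), and Cd6, a T cell surface receptor, by 1.09 (adjusted p = 0.0221). Cd4 rose in spleen by 1.04 (adjusted p = 0.0103) and fell in lymph node, at -0.99 (adjusted p = 0.0303). In lymph node Cd3g fell at -1.70 (adjusted p = 0.00383), Themis, a regulator of T cell selection, at -1.52 (adjusted p = 0.00665) and Thy1 at -1.50 (adjusted p = 0.0111). Runx3, a factor required for Cd8 expression, was 0.73 in spleen (adjusted p = 0.115) and 0.70 in lymph node (adjusted p = 0.232). Over both tissues, where 3 of the 15 genes rose and 1 fell, Runx3 rose by 0.70 (SE 0.20, adjusted p = 0.0201).

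The list of NK lectin-like receptors, without the members, had 21 of 24 genes on the array, and 9 of them passed the filter on low values. In spleen 3 rose and 1 fell, and in lymph node 1 rose. Klrc1 (NKG2A), the inhibitory partner of Klrd1, was 0.21 in spleen (adjusted p = 0.592) and 0.22 in lymph node (adjusted p = 0.691), neither past the threshold. Klra2 (Ly49B), which is known from myeloid cells, rose by 2.07 in spleen (adjusted p = 0.00148) and by 2.27 in lymph node (adjusted p = 0.00162), again against GFP means near background (5.50 and 4.72). Klrb1b rose by 1.18 (adjusted p = 0.0128) and Klrb1f by 0.80 (adjusted p = 0.0301) in spleen, and Klri1 fell, at -0.74 (adjusted p = 0.0288). Genes of these families are similar in sequence, and cross-hybridisation of probes was not tested.

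In the list of other NK and cytotoxic genes, 15 of 29 rose and 3 fell in spleen, against 4 rises and 6 falls in lymph node. Ccl5, a chemokine of effector lymphocytes, rose in spleen by 2.82 (adjusted p = 0.000399), Ifng by 3.30 (adjusted p = 0.00138), Gzmb by 2.96 (adjusted p = 0.0016) and Eomes, a factor of NK and memory CD8 cells, by 2.58 (adjusted p = 0.0019). The integrin gene Itgam, which myeloid and NK cells share, rose by 1.67 (adjusted p = 0.00164) and Id2 by 1.01 (adjusted p = 0.00125). The 3 falls in spleen were Cd226 at -1.44 (adjusted p = 0.00475), Cd96 at -0.75 (adjusted p = 0.0145) and Txk at -0.63 (adjusted p = 0.0391). The falls in lymph node included Cd96, a receptor of T and NK cells, at -2.45 (adjusted p = 5.21e-05), Cd226, an activating receptor, at -1.60 (adjusted p = 0.0067), and Gzma at -1.54 (adjusted p = 0.0067). Txk fell there at -1.41 (adjusted p = 0.00201) and Cd69 at -0.83 (adjusted p = 0.00993), whereas S1pr5, an exit receptor of NK cells, rose by 0.67 (adjusted p = 0.0121). Ifng and Gzmb rose in lymph node too, by 2.11 (adjusted p = 0.0242) and 1.93 (adjusted p = 0.0264). The GFP means of Ifng in spleen (5.38) and lymph node (5.56) and of S1pr5 in lymph node were near background.

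The adaptors, 18 genes tested, had 4 rises in spleen, and 1 rise and 2 falls in lymph node. Hcst (DAP10), the adaptor of Klrk1, was 0.07 in spleen (adjusted p = 0.821) and fell in lymph node, at -0.99 (adjusted p = 0.0199). Fcer1g, which signals for Ncr1 but also for Fc receptors of myeloid cells, rose in spleen by 1.51 (adjusted p = 0.00201), and Tyrobp (DAP12) by 0.87 (adjusted p = 0.0318). Cd247, which signals for both Ncr1 and the T cell receptor, fell in lymph node, at -1.10 (adjusted p = 0.00927). Sh2d1a rose in spleen by 1.497 (adjusted p = 0.00367). Sh2d1b1, an adaptor of NK and other innate cells, rose by 1.02 in spleen (adjusted p = 0.00636) and by 1.36 in lymph node (adjusted p = 0.00341).

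Among 17 tested ligand genes, 5 rose and 1 fell in spleen, and 2 rose and 2 fell in lymph node. Clec2i fell in both tissues, at -0.89 in spleen (adjusted p = 0.000702) and -0.86 in lymph node (adjusted p = 0.00123). Clec2d fell in lymph node, at -1.03 (adjusted p = 0.00258). H2-T23 (Qa-1), the ligand of the Klrd1 and Klrc1 pair, rose by 1.47 in spleen (adjusted p = 0.00341) and by 0.99 in lymph node (adjusted p = 0.0444). Ulbp1 (MULT1), a ligand of Klrk1, rose by 0.92 (adjusted p = 0.00601) and by 0.72 (adjusted p = 0.0409) in those tissues. Cfp, properdin, a reported ligand of NKp46, rose in spleen by 1.08 (adjusted p = 0.0116). Of the class I molecules that CD8 binds, H2-D1 rose in spleen by 0.95 (adjusted p = 0.0102), whereas H2-K1 was at 0.44 (adjusted p = 0.128) and B2m at 0.32 (adjusted p = 0.0939).

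Of 16 tested genes of the IL-2 and IL-15 pathway, 6 rose and 2 fell in spleen, and 1 rose and 5 fell in lymph node. Il15ra, which presents IL-15 to Il2rb, rose in spleen by 1.16 (adjusted p = 0.00225) and was -0.40 in lymph node (adjusted p = 0.245). Il15 itself was 0.56 in spleen (adjusted p = 0.0522) and fell in lymph node, at -1.28 (adjusted p = 0.00276). The kinase gene Jak1 fell in lymph node, at -0.66 (adjusted p = 0.0124), and Il7, the stromal cytokine for lymphocyte survival, at -1.36 (adjusted p = 0.000353). Stat5a and Stat5b did not pass in either tissue. Pim1, a STAT5-induced kinase, rose by 1.49 in spleen (adjusted p = 0.00111) and by 1.49 in lymph node (adjusted p = 0.00185).

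**Figure D4:**
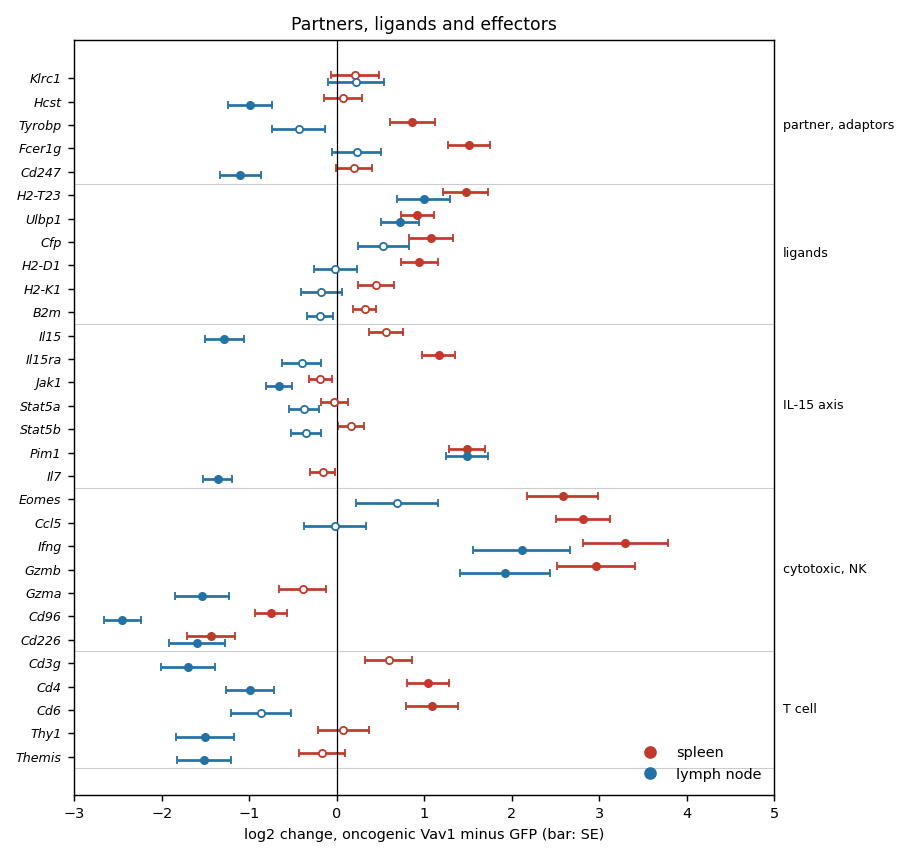
Log2 change, oncogenic Vav1 minus GFP (horizontal axis), of partner, ligand, cytokine and T cell genes named in the text, in spleen and lymph node, with SE bars and filled points for adjusted p under 0.05. The ligand genes H2-T23 and Ulbp1 rose in both tissues, while the T cell genes Cd3g, Thy1 and Themis fell in lymph node. The ligand genes Clec2d and Clec2i, which fell, are not shown.

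Markers of other cells moved with these comparisons, and their part in the results was not tested. The mean level of 8 T cell markers was 8.94 to 9.36 in oncogenic Vav1 spleen and 8.59 to 8.64 in GFP spleen, and 7.89 to 9.04 in oncogenic Vav1 lymph node and 9.61 in both GFP lymph node arrays. Of the 8, 1 rose in spleen, and 4 fell in lymph node. The 6 neutrophil markers rose in both tissues, at medians of 3.69 and 3.26, as did the 5 proliferation markers. In lymph node all 5 erythroid markers rose, at a median of 4.04, and all 4 stromal markers fell, at -2.06. The 2 oncogenic Vav1 lymph node arrays differed, with mean erythroid levels of 8.89 in replicate 1 and 11.31 in replicate 2. Their macrophage and monocyte levels were 10.50 and 9.56. In spleen all 6 B cell markers fell, at -1.07. Markers of cross-presenting dendritic cells, which carry Cd8a, were mixed, with 2 of 7 higher and 1 lower in spleen. The NK list without Ncr1, Klrb1c, Klrd1 and Klrk1 left 4 tested genes, of which 1 rose in each tissue and none fell.

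Across the 10 arrays Pearson's r between members ran from -0.63, for Klrb1c and Il2rb, to 0.96, for Ncr1 and Klrd1. Cd8a and Cd8b1 had 0.94, Klrb1c and Klrd1 0.89 and Ncr1 and Klrb1c 0.87. CD8 chains and NK receptors also varied together, with 0.86 for Cd8b1 and Klrd1, 0.82 for Cd8a and Klrk1 and 0.81 for Cd8b1 and Ncr1. After subtraction of group means Cd8a had 0.84 both with Cd8b1 and with Il2rb. Cd8b1 and Klrk1 then had 0.85, Ncr1 and Klrd1 0.87 and Ncr1 and Klrb1c 0.21. Klrb1c had negative values of -0.92 with Il2rb, -0.72 with Cd8a and -0.41 with Cd8b1. The genes most like the members over all arrays were Bcl11b for Cd8a (r of 0.98), Cst3 for Cd8b1 (0.98), Il7r for Ncr1 (0.98), Pym1 for Klrb1c (0.98), Itsn1 for Klrd1 (0.98), Kat7 for Klrk1 (0.96) and Tox for Il2rb (0.99). Within groups the most alike were Setd5 for Cd8a, Ctsw for Cd8b1, Slc12a2 for Ncr1, Trp53bp1 for Klrb1c, Il18r1 for Klrd1, Slc9a9 for Klrk1 and Ppp1r18 for Il2rb. These values describe arrays that share groups and animals, and the genes were the highest of 13393.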

How the data were processed

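RNA of 10 samples was measured on single-colour Affymetrix arrays. Values are log2 values that the authors made with RMA and R 3.6.3, per the submitters' processing notes, and were used as deposited; the annotation, any filter and the genome build are not given in the sources used here. The members and lists were chosen with earlier results of these data known. A gene was represented by its probe set with the highest mean and tested if above the 40th percentile of its array on at least 2 arrays. Constructs were compared per tissue in a limma 3.58.1 model of the 4 groups (R 4.3.3, eBayes with a variance trend, 6 residual degrees of freedom). The other comparisons had the animal as a random block (statmod 1.5.0), whose correlation was -0.354 for both tissues together and -0.113 for the interaction and the tissue comparisons. P-values were Benjamini-Hochberg adjusted over all genes tested, with 0.05 as the threshold, and are two-sided. All 7 members were named. From each list at most 6 genes per comparison were named, first those that bind, pair with or signal for a member, then by smallest p. Where a gene named for 1 tissue also passed in the other, that call was added. For each member the most alike genes were named too. The number of arrays limits the precision. Tested on simulated data, in which some genes differed by 1 and others by 2 log2 units, the model recovered 66% and 95% in spleen, 58% and 95% in lymph node, and 28% and 80% for the interaction. Same-numbered arrays were not read as pairs, since by the labels no same-numbered arrays came from the same animal. Correlations of their deviations from group means ran from -0.06 to 0.51. In a group of 2 arrays these deviations mirror each other, so that range cannot show whether arrays are paired. Alternatives covered the filter, scaling, variance model, array weights, arrays left out and an intronic control covariate. Promoters come from RefSeq.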

Additional observations from a re-analysis of the deposited data

Results flagged for a closer look

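Among the values of oncogenic Vav1 spleen, the only group of at least 4 arrays, 1 array stood apart by Dixon's ratio for each of 4 genes. Klrk1 in replicate 3 had a ratio of 0.870, above the 95% critical value for 4 arrays, and lay at 7.47, above the other 3 arrays. Klrb1c in replicate 2 had 0.881 and lay at 5.22, within the range near background. Gzmb in replicate 3 had 0.831 and Pim1 in replicate 2 had 0.833. Chance alone gives such a ratio in about 1 of 20 groups, and 53 genes were examined in this group.

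By the interaction term (lymph node change minus spleen change), the construct difference itself differed between tissues for 1077 of the 13393 genes tested. Of these calls 952 were negative, or 7.11% of all genes tested. The positive calls were 11.6% of the 1077, a share of the calls and not of all genes tested. The negative calls took in 7 of 15 tested genes of the CD8 lineage list, 6 of 29 of the other NK and cytotoxic list and 4 of 16 of the IL-2 and IL-15 list, while 3 of 6 B cell markers had positive calls. Among the members the calls were Cd8a at -1.75 and Cd8b1 at -1.73. Of the T cell genes named above, Cd3g had -2.28, Cd4 -2.04, Cd6 -1.96 and Cd247 -1.29. Of the NK and cytotoxic genes named above, Ccl5 had -2.83, Nkg7 -2.22, Cd96 -1.69, Itgam -1.51 and Id2 -0.85. Of the genes in the IL-2 and IL-15 pathway list, Il15 had -1.87, Socs2 -1.83, Il15ra -1.59 and Il7 -1.21.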

How the results depend on the processing

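In spleen 3 members were called, 0 with the intronic control covariate, 5 without both arrays of animal ONCO3 and 0 to 4 with single arrays left out. In lymph node 5 were called, 2 with only the compared arrays fitted and 3 to 6 with single arrays left out. Over both tissues 4 were called, 7 with the replicate block and 3 to 6 with single arrays left out. For the interaction 2 were called, 1 under each of the stricter filter, median centring, quantile normalization and no variance trend, 6 without ONCO3 and 0 to 4 with single arrays left out. For GFP lymph node against spleen 2 were called, 5 with array weights or only the compared arrays, 6 with the intronic covariate, 6 without ONCO3 and 0 to 4 with single arrays left out. For oncogenic Vav1 lymph node against spleen none was called by limma, where none had an unadjusted p under 0.05, and 0 to 3 with single arrays left out. Leaving out ONCO3 was chosen after seeing the data. In lymph node Il2rb ran from -0.84 to 0.59 with single arrays left out, reversed to 0.59 without oncogenic Vav1 replicate 2 or ONCO3, and Klrb1c in oncogenic Vav1 lymph node against spleen ran from -1.01 to 0.58, reversed without lymph node replicate 1. With the replicate block 2 members were called in spleen, where Klrb1c and Il2rb lost and Klrd1 gained its call, and 6 in lymph node; the numbers mark no shared animal between constructs. The counts over all genes ranged from 916 to 5849 (3596 as reported) in spleen, 433 to 4650 (2500) in lymph node, 1983 to 7335 (4247) over both tissues, 384 to 4201 (1077) for the interaction, 863 to 4705 (2144) for GFP tissues and 0 to 3812 (5) for oncogenic Vav1 tissues. The member counts above are not set beside the all-gene count of the same setting, so they only describe the settings. The causes of these changes were not tested. Ncr1 and Klrb1c near background limit how far a fall can be measured.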
